A study of Mus musculus with 14 samples.

Results

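The 41 mouse genes described here were grouped under ATF4 targets, amino acid synthesis and tRNA synthetases. They comprise 6 stress factors (Atf4, Atf5, Ddit3, Trib3, Chac1 and Nupr1) and 7 enzymes of serine, glycine and one-carbon metabolism. The others are 2 enzymes of proline synthesis, 6 other amino acid enzymes and 20 tRNA synthetases. The genes were chosen by symbol, and all 41 were found among the 24359 genes used of each library. Their levels were read from 14 RNA sequencing libraries of poly(A) RNA from tibialis anterior, a fast muscle of the lower leg, of C57Bl/6 mice that were labelled as control or as treated with follistatin. At day 3 there were 3 control and 4 follistatin libraries, at day 7 there were 2 and 2, and at day 14 there were 1 and 2. The design of the series joins days 7 and 14 into a chronic set of 3 control and 4 follistatin libraries. The data columns of the controls carry the abbreviation MCS, which is not explained. The labels do not give the route of follistatin delivery, the treatment of the controls, the age of the mice or whether replicates came from different mice. A p-value here thus reflects no more than library to library spread, which may be technical.

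Follistatin is a secreted protein that binds and blocks myostatin and activins, which restrain muscle growth. ATF4 is a transcription factor whose protein is made when translation initiation is slowed by stress kinases, for example when amino acids or haem are short or proteins misfold, and it switches on genes that import, make and charge amino acids. tRNA synthetases attach each amino acid to its transfer RNA and so feed protein synthesis, while the serine, glycine and one-carbon enzymes also supply carbon units for nucleotides. Growing muscle draws on amino acids as building blocks, and the growth kinase mTORC1 is known to raise ATF4 activity as well.

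Levels are given as FPKM, fragments per kilobase of transcript after scaling to library size. Follistatin minus control differences of log2(FPKM + 1) were tested with limma for every gene whose mean reached 1 FPKM. The mean was taken over both treatments, so a gene low in controls could pass through high follistatin levels alone. Genes count as called where the p, adjusted over all genes tested by the Benjamini-Hochberg method, was under 0.05. The added 1 makes the log2 differences of weakly expressed genes smaller than the ratio of their means. Fst, the gene of follistatin, lay between 1.01 and 1.42 FPKM in the day 3 controls and between 49.7 and 67.8 FPKM in the day 3 follistatin libraries. In the chronic controls Fst was 0.808 to 1.17 FPKM, and with follistatin it was 367 and 407 FPKM at day 7 and, at day 14, 1315 and 1421 FPKM. The muscle marker Actn3 was 2917 to 4032 FPKM in the 14 libraries. All 10 muscle fibre markers are marked in the authors' table of at least 1 set as having too many reads to estimate, so their summed level is not given. From 15766 to 17161 genes were above 0 FPKM in the day 3 libraries and 16158 in control day 7 replicate 1, against 19383 to 20283 in the other chronic libraries. In bulk muscle, fewer cells of a type and less RNA per cell cannot be told apart.

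Of the stress factors, Chac1 alone was called at day 3, as lower, while the level of Atf4 itself was close to that of the controls. CHAC1 degrades glutathione in the cytosol and is a known target of ATF4. Of the 41 genes, 37 passed the filter on low values at day 3, and Chac1 was the 1 gene called; 1.49% of all 11268 genes tested were called, 0.568% as lower. The median log2 difference of the 5 stress factors tested was -0.19 at day 3, with 2 above 0, against 0.01 over all genes tested, of which 52.6% were above 0.

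Chac1 stood at 34.4, 58.2 and 22.8 FPKM in the day 3 controls and at 1.26, 1.97, 5.37 and 4.46 FPKM in the follistatin libraries. Every day 3 follistatin library was thus below every control, as in 6.80% of all genes. The means differed by a factor of 11.8 (38.5 ± 18.0 FPKM, SD, n = 3, and 3.27 ± 1.97 FPKM, SD, n = 4). The log2 difference was -3.24 ± 0.41 (SE; limma, Benjamini-Hochberg adjusted p = 0.0110). Without control day 3 replicate 1, the adjusted p from limma was 0.0555 at a log2 difference of -3.26. In the same day 3 libraries the summed endothelial markers were 123 to 136 FPKM in controls and 103 to 114 FPKM with follistatin, adipocyte markers 409 to 464 and 353 to 382 FPKM, and smooth muscle and pericyte markers 224 to 249 and 181 to 224 FPKM; their part in the day 3 values was not tested. Most of the adipocyte sum was the single marker Fabp4. The other marker sums overlapped at day 3. At day 7 the controls had 19.7 and 28.1 FPKM and the follistatin libraries 0.698 and 0.784 FPKM, a 32.2-fold difference of the means. The lone day 14 control had 10.3 FPKM, and the follistatin libraries of that day had 2.91 and 8.66 FPKM. Chac1 was therefore lowest at day 7 under follistatin, and the gap at day 14 was the smallest of the 3 days, with a control that was itself below the other 5 controls. None of the later comparisons called the gene. The log2 difference was -2.53 ± 0.62 (SE) in the chronic set (limma, Benjamini-Hochberg adjusted p = 0.0555). It was -3.82 ± 0.44 at day 7 (adjusted p = 0.0609) and -0.88 ± 0.54 at day 14 (adjusted p = 0.484) in the fit of both days. Without follistatin day 14 replicate 2, the library with the highest chronic follistatin level, the chronic difference was -3.05 and the adjusted p 0.0201. The difference between the day 14 and day 7 effects, 2.94 ± 0.69 on the log2 scale, was not called (limma, adjusted p = 1.00). In the authors' deposited table Chac1 had log2 fold changes of -3.57 at day 3 (q = 0.00191) and -2.57 in the chronic set (q = 0.000894).

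Because Chac1 was the stress factor that was called, the 250 bases before its RefSeq transcript start are shown, with matches to 2 motifs in capitals. They lie at chr2:119350992-119351241 of GRCm38.p6, on the + strand; the gene itself spans chr2:119351229-119354381 in GENCODE M21, so the last bases shown lie inside that model. The first motif, TGATGNAA, is the core of the C/EBP-ATF response element to which ATF4 binds with C/EBP partners; here it stands on the opposite strand, as TTGCATCA, with its outermost base 193 bases before the start. The second is the shorter ATF and CREB core TGACG, at the first bases shown.
Chac1: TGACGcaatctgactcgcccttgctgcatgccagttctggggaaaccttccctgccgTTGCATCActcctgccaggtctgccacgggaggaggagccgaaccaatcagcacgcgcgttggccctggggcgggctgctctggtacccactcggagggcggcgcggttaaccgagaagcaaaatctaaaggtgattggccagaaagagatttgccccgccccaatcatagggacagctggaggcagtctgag

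Promoter windows from 250 bases before to 50 after the start were searched for 32 of the 41 genes, and 10 of these (31.2%) held TGATGNAA on either strand. Of all 27025 genes in the RefSeq table, 4.51% had a window that held it, as did 3.97% of its 32851 windows. The holders were 3 of 6 stress factors, 1 of 2 proline enzymes, 2 of 5 other amino acid enzymes, 4 of 12 tRNA synthetases (Gars, Iars, Tars and Yars) and 0 of 7 serine, glycine and one-carbon enzymes. Stretches of 30 bases around the match, each read so that the motif in capitals runs in the order given, show the same core near the start of genes whose measured responses differed. The shorter TGACG was in 13 of the 32 windows (40.6%) and in 23.0% of all genes (20.8% of all windows), and a stretch of letters cannot match both motifs from the same base.
Trib3, chr2:152344028-152344057: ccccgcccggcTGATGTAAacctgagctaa
Nupr1, chr7:126625562-126625591: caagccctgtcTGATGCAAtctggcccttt
Pycr1, chr11:120643833-120643862: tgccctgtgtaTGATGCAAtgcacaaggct
Asns, chr6:7693214-7693243: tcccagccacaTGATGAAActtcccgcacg
Tars, chr15:11399655-11399684: agctaaccagcTGATGCAAcgggactcctg

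**Figure D1:**
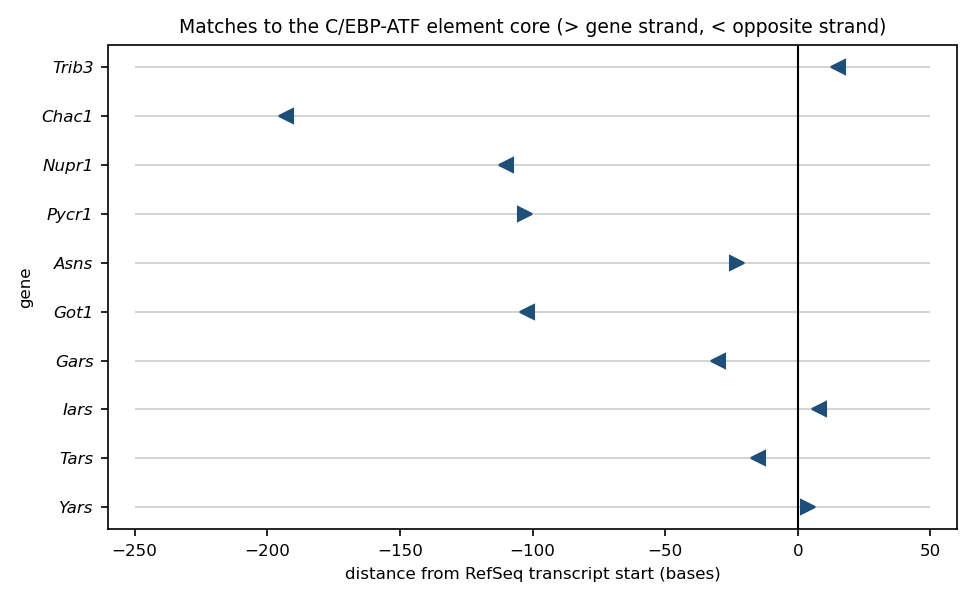
Position of each TGATGNAA match (triangles) relative to the RefSeq transcript start, in bases, for the 10 genes that hold one, pointing right on the gene strand and left on the opposite strand. The Chac1 match lies farthest from the start, at 193 bases before it, and each gene has 1 match.

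Genes with a match had differences on both sides of 0. Across the chronic set the 9 tested genes with the motif had a median log2 difference of 0.20, from -2.53 (Chac1) to 0.45 (Pycr1). The 19 tested genes whose window lacked it had a median of 0.13, from -0.36 (Glul) to 1.61 (Mthfd2). Pycr1 and Asns with the motif, and Psat1 without it, passed the chronic filter only through follistatin. At day 3 this held for Phgdh, without the motif. The medians with and without the motif were 0.02 and 0.16 at day 3, in 8 and 20 genes tested. They were 0.06 and 0.13 at day 7 and 0.27 and 0.13 at day 14, so the order differed between days. A match is a description of the sequence and says nothing of whether a factor was bound.

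Atf4 RNA was abundant and varied little at day 3. It stood at 101, 107 and 89.1 FPKM in the controls and 114, 109, 110 and 92.3 FPKM with follistatin, and these ranges overlap. The chronic controls had 105, 97.6 and 108 FPKM. The follistatin libraries had 123 and 113 FPKM at day 7 and, at day 14, 121 and 183 FPKM. All were above the 3 controls, as in 8.96% of all genes. The log2 differences, 0.10 ± 0.09 at day 3 and 0.35 ± 0.17 in the chronic set (SE), were not called (limma, Benjamini-Hochberg adjusted p = 0.681 and 0.222). The highest level was that of follistatin day 14 replicate 2. ATF4 is controlled mainly at translation, which RNA levels do not show.

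Ddit3, which encodes the stress factor CHOP, had 16.5, 21.3 and 21.6 FPKM in the day 3 controls and 22.9, 26.0, 34.0 and 25.4 FPKM with follistatin. The groups did not overlap, as for 8.31% of all genes with follistatin higher, but the log2 difference of 0.43 ± 0.15 was not called (limma, adjusted p = 0.216). Later the Ddit3 groups overlapped, at 18.2 to 23.0 and 15.6 to 25.5 FPKM. Ddit3 shares 68 exon bases with Mars on the opposite strand, and the strand setting of the counting is not given in the sources used here.

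Trib3, a pseudokinase that restrains ATF4, was too low to be tested. It was between 0.119 and 0.944 FPKM in 12 of the 14 libraries and reached 1.84 and 3.18 FPKM in the day 14 follistatin libraries, the 2 highest values of the gene. The authors' deposited table gives Trib3 a chronic log2 fold change of 1.87 (q = 0.00158). Nupr1, a small stress-induced chromatin protein, and Atf5, a relative of ATF4, had overlapping groups in both sets. Their log2 differences were -0.31 and -0.19 at day 3 and -0.30 and -0.02 in the chronic set, none called.

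**Figure D2:**
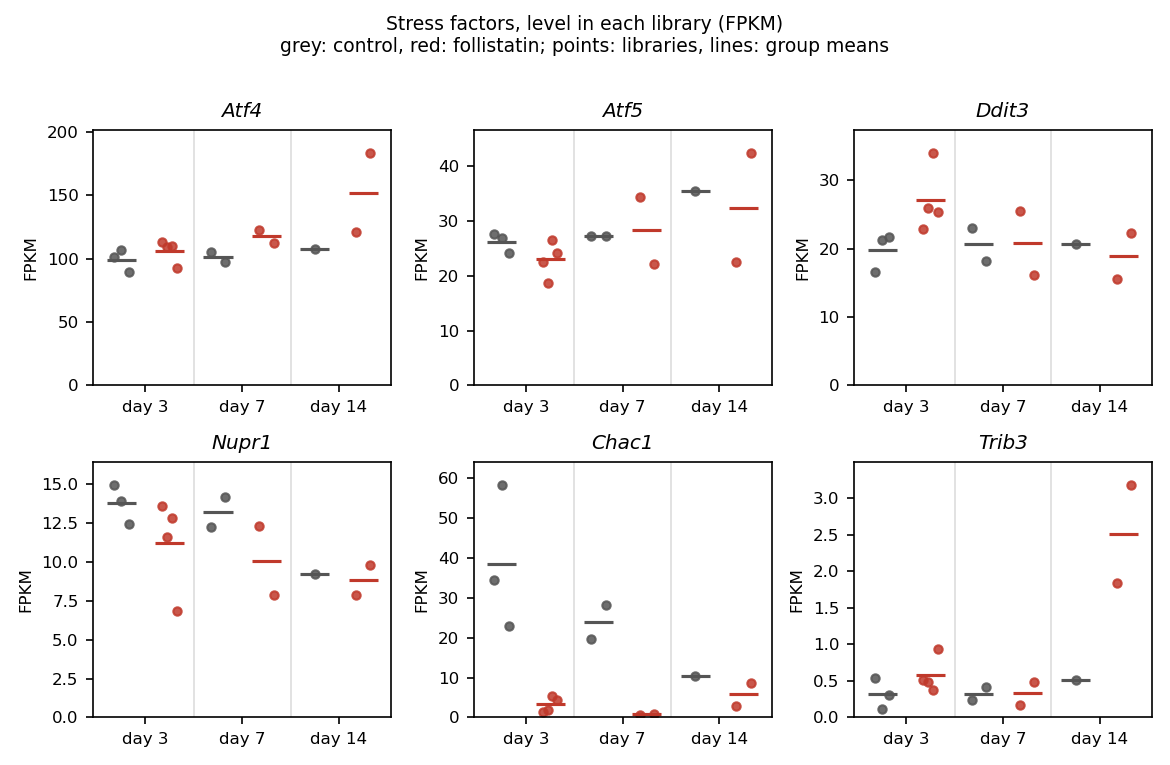
Level in FPKM (vertical axes, from 0) of the 6 stress factors in each library by day, with controls in grey, follistatin in red, and lines at the group means. Chac1 is below all its controls with follistatin on each day, while Atf4 lies between 89.1 and 183 FPKM and Trib3 exceeds 1 FPKM only in the day 14 follistatin libraries.

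Among the serine, glycine and one-carbon enzymes no gene was called at day 3 or in the chronic set, and Mthfd2 rose at day 14. All 5 tested in the chronic set were above 0, with a median log2 difference of 0.58, beside -0.09 over all 11047 genes tested, of which 39.2% were above 0. Of the 5, Psat1 passed the filter only through its follistatin libraries, so the filter favoured its direction. Its chronic means were 0.72 FPKM in controls and 2.03 FPKM with follistatin. At day 3 the median of the 6 tested was 0.24, with 6 above 0. Of these 6, Phgdh passed the filter only through follistatin, so the filter favoured its direction. Its day 3 means were 0.95 FPKM in controls and 1.04 FPKM with follistatin. With limma the unadjusted p was under 0.05 for 4 of the 5 in the chronic set, all higher, where 8.99% of all genes were so, and for 1 of the 6 at day 3 (Psph, higher; 8.72% of all genes). Their summed level was 26.6 to 29.0 FPKM in the day 3 controls and 31.9 to 35.4 FPKM with follistatin. It was 24.1 to 30.0 FPKM in the chronic controls, 35.9 and 39.4 FPKM with follistatin at day 7 and, at day 14, 48.0 and 65.1 FPKM.

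Mthfd2, the mitochondrial enzyme that oxidises the folate-bound carbon unit, had the highest level of the 7 in both day 14 follistatin libraries. The gene lies at chr6:83305691-83325908 on the - strand. Its level was 2.45, 2.58 and 3.13 FPKM in the day 3 controls and 3.18, 3.61, 2.38 and 3.27 FPKM with follistatin, which overlap. Later controls had 2.07 and 2.53 FPKM (day 7) and 3.18 FPKM (day 14). With follistatin it was 3.604 and 5.004 FPKM at day 7 and, at day 14, 18.2 and 25.8 FPKM. The day 14 values were thus 6.91 times their lone control in the mean, and both were above every other library. Mthfd2 was the only member called at day 14, among 36 tested (log2 difference 2.44 ± 0.28, SE; limma, Benjamini-Hochberg adjusted p = 0.0432), where 0.507% of all genes were called, 0.226% as higher. That fit has 1 day 14 control, which is assumed to vary like the other groups, and leaving out any of the other 6 chronic libraries ended the call, with adjusted p from 0.0656 to 0.209. In the combined chronic set the log2 difference was 1.61 ± 0.60, not called (limma, adjusted p = 0.130). A fit of all 14 libraries with a mean per treatment and day averaged the day 7 and day 14 effects. It thus left the spread between those days out of the error, and gave 1.56 (limma, adjusted p = 0.000158). The day 14 effect exceeded that of day 7 by 1.76 ± 0.36, which was not called either (adjusted p = 0.737).

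Markers of macrophages and leukocytes moved in the same libraries. Of the 8 symbols listed 7 were found and tested, none of them at 0 in every library. Lyz2 ranged from 25.6 to 231 FPKM over the 14 libraries, and each of the others reached at most 35.3 FPKM. The summed level of the 7 was 40.7 FPKM in the day 14 control and 81.8 and 219 FPKM in the day 14 follistatin libraries. The higher value was that of replicate 2, which also had the higher Mthfd2, Trib3 and Atf4. The day 7 sums were 46.5 and 112 FPKM in controls and 66.0 and 72.8 FPKM with follistatin, and those of day 3 ran from 136 to 321 FPKM over both groups while Mthfd2 stayed under 4 FPKM. Other marker sums were lower without overlap in the chronic follistatin libraries. The sum of 6 endothelial markers was 123 to 164 FPKM in chronic controls and 56.2 to 106 FPKM with follistatin, that of 5 smooth muscle and pericyte markers 122 to 170 and 38.2 to 98.5 FPKM, that of 4 Schwann cell markers 20.5 to 56.1 and 8.43 to 19.8 FPKM, and that of 4 adipocyte markers 387 to 489 and 217 to 380 FPKM. Most of the adipocyte sum was the single marker Fabp4. Of 3 adipocyte markers tested, 3 had a log2 difference below 0 in the chronic set. At day 7 taken apart, 2 of the 3 were above 0, with a median of 0.04. Sums of fibroblast markers (353 to 682 and 317 to 601 FPKM) and satellite cell markers (8.13 to 8.50 and 6.71 to 8.55 FPKM) overlapped. The part of any of these cells in the Mthfd2, Trib3 and other chronic values was not tested.

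Psat1, Psph and Phgdh make serine from a glycolytic intermediate. Psat1, the aminotransferase of the route, had 0.480 and 1.14 FPKM in the day 7 controls and 0.534 FPKM in that of day 14. With follistatin it had 1.13 and 1.68 FPKM at day 7 and, at day 14, 2.74 and 2.59 FPKM, so that day 7 overlapped and day 14 did not. Its chronic log2 difference was 0.80 ± 0.24, not called (limma, adjusted p = 0.0851). At day 3 the Psat1 groups overlapped, at 0.891 to 2.42 and 1.18 to 3.88 FPKM.

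Psph, the phosphatase of the last step, had 7.24, 7.78 and 7.81 FPKM in the chronic controls. With follistatin the levels were 10.05, 11.3, 10.05 and 17.1 FPKM. Psph was thus higher without overlap, as were 8.96% of all genes. Its log2 difference of 0.58 ± 0.18 was not called (limma, adjusted p = 0.0916); Psph shares 452 exon bases with Cct6a on the opposite strand. Phgdh, the entry enzyme, stayed low, from 0.281 to 1.57 FPKM over the 14 libraries, with overlapping groups in both sets.

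Shmt1, which splits serine into glycine and a carbon unit in the cytosol, had 3.90, 4.51 and 3.71 FPKM in the chronic controls. With follistatin it had 6.32, 8.14, 4.86 and 5.96 FPKM, all higher, as in 8.96% of all genes. The log2 difference of 0.52 ± 0.15 was not called (limma, adjusted p = 0.0821). It passed when libraries were rescaled by the median ratio or by quantiles, with adjusted p of 0.0437 and 0.0334. Shmt2, the mitochondrial form, had overlapping groups in both sets, with log2 differences of 0.19 and 0.22, and Mthfd1l, which releases formate in mitochondria, was under 1 FPKM in all 14 libraries and was not tested.

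Aldh18a1, which makes the first committed intermediate of proline synthesis and lies at chr19:40550257-40588463, rose in the chronic set. The controls had 1.89, 3.01 and 2.83 FPKM. Follistatin libraries had 4.09 and 5.86 FPKM at day 7 and, at day 14, 8.04 and 7.84 FPKM, higher on the later day. All were above the controls, as in 8.96% of all genes. The means were 2.58 ± 0.60 FPKM (SD, n = 3) and 6.46 ± 1.86 FPKM (SD, n = 4), a 2.51-fold difference. Aldh18a1 was the 1 of 36 tested members called in the chronic set (log2 difference 1.04 ± 0.22, SE; limma, Benjamini-Hochberg adjusted p = 0.0405), where 5.50% of all genes were called, 2.24% as higher. The call was lost without any of control day 7 replicate 1, control day 7 replicate 2, control day 14 replicate 1, follistatin day 7 replicate 2, or follistatin day 14 replicate 1 or 2, with adjusted p of 0.190, 0.0975, 0.126, 0.0624, 0.0800 and 0.0723. At day 3 the groups overlapped, at 1.51 to 2.87 and 2.17 to 2.68 FPKM.

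Pycr1, the last enzyme of proline synthesis, was near 1 FPKM. Its chronic controls had 0.396, 0.973 and 0.961 FPKM and the follistatin libraries 1.07, 1.20, 1.80 and 1.61 FPKM, with no overlap. The log2 difference was 0.45 ± 0.19, not called (limma, adjusted p = 0.162). Of the 36 tested members 10 were higher in the chronic set with no overlap, as were 8.96% of all genes. Pycr1, among these 10, passed the filter only through follistatin (chronic means 0.78 FPKM in controls and 1.42 FPKM with follistatin).

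The other amino acid enzymes went different ways, and none was called. Asns, asparagine synthetase, had 0.797, 1.02 and 0.901 FPKM in the chronic controls, 0.712 and 0.856 FPKM with follistatin at day 7 and, at day 14, 2.08 and 2.17 FPKM. The day 14 values are the highest of the gene in the 14 libraries, while those of day 7 overlapped the controls. Asns passed the chronic filter only through follistatin (means 0.91 FPKM in controls and 1.46 FPKM with follistatin). The log2 difference was 0.72 ± 0.19 at day 14 (limma, adjusted p = 0.221), and its excess over day 7, 0.81 ± 0.24, was not called (adjusted p = 1.00).

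Glul makes glutamine from glutamate and is among the well expressed enzymes of muscle. It had 76.3, 74.3 and 75.8 FPKM in the day 3 controls and 87.6, 125, 101 and 84.3 FPKM with follistatin. All were higher, as in 8.31% of all genes. In the chronic controls it had 40.5, 41.9 and 50.4 FPKM. With follistatin it had 37.3, 37.4, 31.2 and 30.7 FPKM, all lower, as in 21.5% of all genes. The log2 differences were 0.38 ± 0.13 at day 3 and -0.36 ± 0.13 in the chronic set, neither called (limma, adjusted p = 0.216 and 0.119). With all 14 libraries in 1 fit and a mean per treatment and day, the chronic difference was -0.41 (limma, adjusted p = 0.0400). The difference of the effects, -0.74 ± 0.19, was not called by limma over the 14 libraries (adjusted p = 0.161), where 0.0884% of all 11306 genes were. In the authors' deposited table Glul passed at day 3 (log2 fold change 0.36, q = 0.0137) and not in the chronic set (q = 0.113).

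Cth, which releases cysteine from cystathionine, had 2.86, 2.47 and 2.96 FPKM in the day 3 controls and 1.66, 1.83, 1.39 and 0.727 FPKM with follistatin. All were lower, as in 6.80% of all genes, and the log2 difference of -0.67 ± 0.18 was not called (limma, adjusted p = 0.141). The authors' deposited table has Cth at -1.03 (q = 0.0434). In the chronic set Cth was below the filter and its groups overlapped, at 0.913 to 1.37 and 0.442 to 1.01 FPKM.

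Got1 and Got2, the cytosolic and mitochondrial aspartate aminotransferases, were the most abundant of these enzymes. Got1 ranged from 249.2 to 373 FPKM over the 14 libraries, and its chronic log2 difference was -0.32 ± 0.13 (limma, adjusted p = 0.148). Got2 had log2 differences of -0.15 and -0.13 in the 2 sets, with overlapping groups. Cbs, the enzyme before Cth, was at most 0.264 FPKM in any library.

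**Figure D3:**
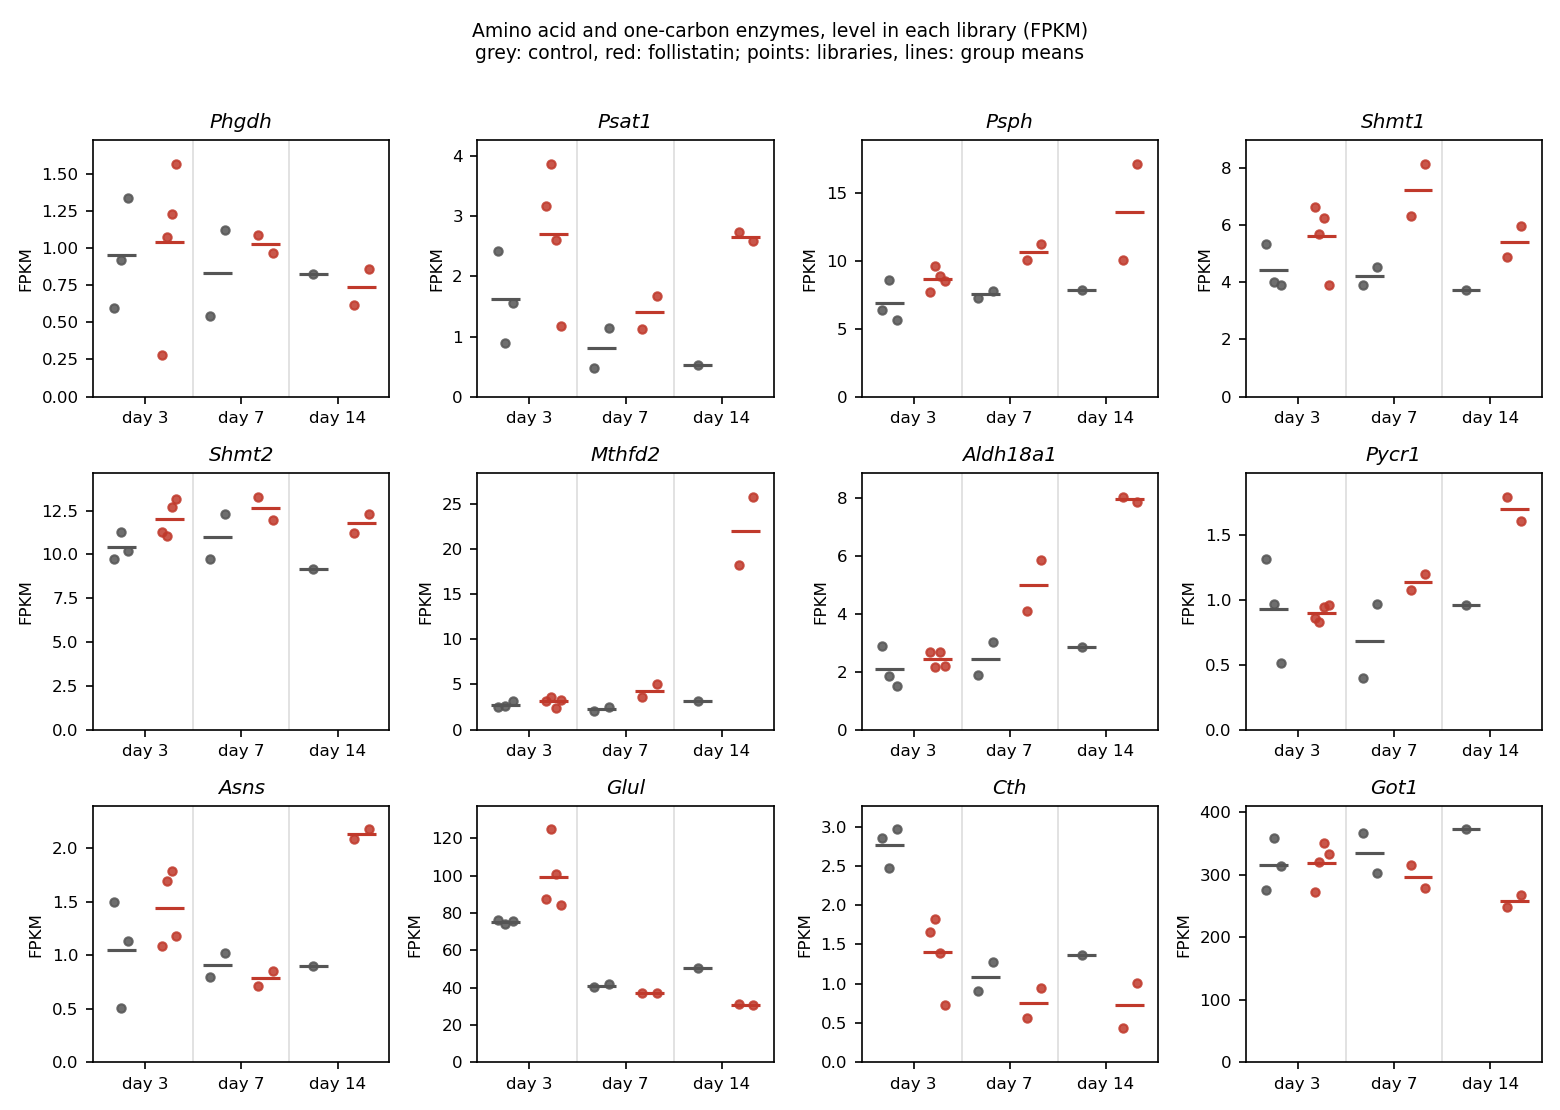
Level in FPKM (vertical axes, from 0) of 12 amino acid and one-carbon enzymes in each library by day, controls grey, follistatin red, lines at group means. Mthfd2 reaches 18.2 and 25.8 FPKM in the day 14 follistatin libraries, Aldh18a1 is above its controls at days 7 and 14, and Glul is above its controls at day 3 and below them later.

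No tRNA synthetase was called in any of the comparisons as fitted here, and all 20 passed the filter. With all 14 libraries in 1 fit and a mean per treatment and day, limma called 3 in the chronic set, as the average of days 7 and 14. These were Hars (higher), Mars (lower) and Yars (higher), with adjusted p of 0.0105, 0.0101 and 0.0213. That fit called Hars and Mars at day 14 (limma, adjusted p = 0.0476 and 0.0358). The median log2 difference of the 20 was 0.04 at day 3, 0.15 in the chronic set, 0.13 at day 7 and 0.16 at day 14, beside 0.01, -0.09, -0.08 and -0.08 over all genes. In the chronic set 17 of 20 were above 0 (19 after median ratio rescaling and 18 after quantile normalization), and at day 3 there were 14 (14 and 10). By limma's unadjusted p under 0.05, 4 were higher and 1 lower at day 3, beside 8.72% and 6.46% of all genes. The same counts were 3 and 1 in the chronic set (8.99% and 19.3% of all genes), 2 and 0 at day 7 (4.96% and 7.73%), and 1 and 1 at day 14 (5.61% and 9.45%). Between the day 14 and day 7 effects they were 0 and 0 (0.860% and 0.978%). Between the chronic and day 3 effects they were 2 and 0 (2.99% and 11.9%). The summed level of the 20 genes was 655 to 664 FPKM in day 3 controls and 688 to 722 FPKM with follistatin. Later it was 637 to 689 FPKM in controls, 665 and 717 FPKM with follistatin at day 7 and, at day 14, 753 and 768 FPKM.

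Levels differed more between synthetases than between treatments. Over the 6 controls the mean level was highest for Eprs, the fused enzyme for glutamate and proline, at 96.7 FPKM, followed by Kars (lysine) at 56.95 and Nars (asparagine) at 56.0 FPKM. Kars and Nars do not differ beyond their ranges of 52.5 to 60.4 and 52.8 to 58.8 FPKM. The lowest were Farsa, a subunit for phenylalanine, at 12.2 FPKM and Vars (valine) at 9.94 FPKM.

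At day 3, 5 of the 20 synthetases were higher without overlap, by small differences, as were 8.31% of all genes. Eprs had 104, 96.5 and 100 FPKM in the controls and 127, 115, 113 and 112 FPKM with follistatin, all higher (log2 difference 0.22 ± 0.07; limma, adjusted p = 0.182). Iars, for isoleucine, had 30.5, 27.7 and 30.3 FPKM against 39.2, 35.1, 33.3 and 35.1 FPKM (0.26 ± 0.08; adjusted p = 0.164). Gars (glycine) and Hars (histidine) were also higher without overlap, by 0.17 and 0.21 on the log2 scale, with adjusted p of 0.284 and 0.242. Rars, for arginine, was the fifth, at 27.0 to 29.6 FPKM in controls and 29.7 to 35.7 FPKM with follistatin (0.18 ± 0.09; limma, adjusted p = 0.360). Eprs, Iars and Gars overlapped in the chronic set.

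Mars, for methionine, was lower with follistatin in both sets. Its day 3 levels were 33.2, 28.3 and 31.0 FPKM in the controls and 26.0, 24.8, 27.8 and 27.6 FPKM with follistatin. Chronic controls had 28.9, 29.3 and 34.0 FPKM, and follistatin libraries 25.5, 23.8, 23.9 and 23.4 FPKM, again with no overlap. The log2 differences of -0.21 ± 0.08 and -0.33 ± 0.10 were not called (limma, adjusted p = 0.266 and 0.0874). Follistatin was lower without overlap for 6.80% of all genes at day 3 and for 21.5% in the chronic set.

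Hars, Yars (tyrosine), Farsa and Rars were higher without overlap in the chronic set, as were 8.96% of all genes. Yars had 19.2, 20.5 and 22.8 FPKM in controls and 26.6, 24.1, 28.4 and 29.5 FPKM with follistatin (log2 difference 0.37 ± 0.11; limma, adjusted p = 0.0879). Hars had 21.8, 20.1 and 16.6 FPKM against 25.0, 27.2, 22.3 and 27.8 FPKM (0.38 ± 0.13; adjusted p = 0.108). Farsa differed by 0.25 ± 0.10, from 11.2 to 12.4 FPKM in controls and 12.9 to 15.7 FPKM with follistatin (adjusted p = 0.145). Rars had 29.6 to 31.0 FPKM in controls and 32.7 to 39.5 FPKM with follistatin (0.21 ± 0.10; limma, adjusted p = 0.216). Hars shares 195 exon bases with Hars2 on the opposite strand.

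**Figure D4:**
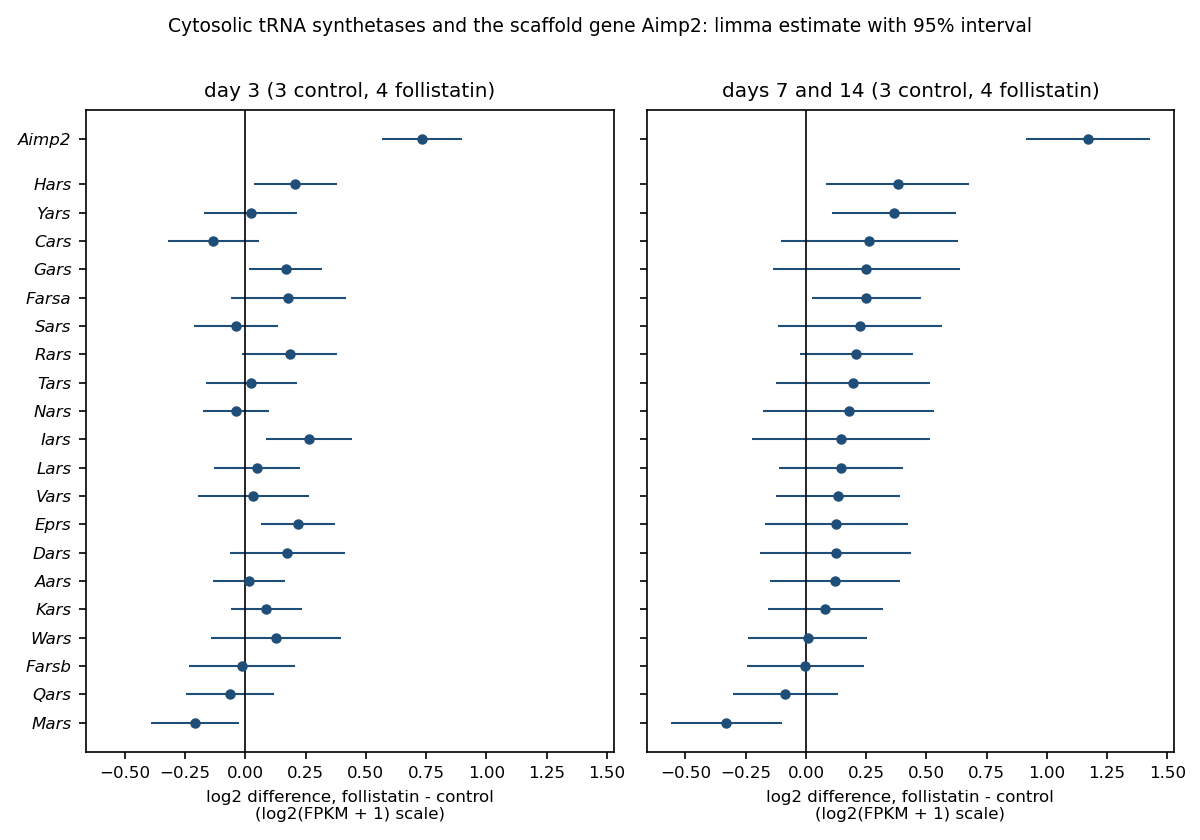
Limma estimates (points) with 95% intervals of the log2 difference, follistatin minus control, on the log2(FPKM + 1) scale for the 20 synthetases and Aimp2 at day 3 (left) and in the chronic set (right), ordered by the chronic estimate. Synthetase estimates lie between -0.33 and 0.38, while Aimp2 stands at 0.73 and 1.17.

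Aimp2, a scaffold that holds synthetases in the multisynthetase complex, rose in both sets. It was the 1 called of the 4 genes listed for scaffolds and transfer RNA export, the others being Aimp1, Eef1e1 and Xpot. Of all genes, 1.49% were called at day 3 and 5.50% in the chronic set. Aimp2 had 143, 139 and 132 FPKM in the day 3 controls and 252, 213, 221 and 237 FPKM with follistatin. Chronic controls had 149, 167 and 140 FPKM and follistatin libraries 381, 331, 321 and 337 FPKM. Aimp2 was thus higher without overlap in both sets, as were 8.31% of all genes at day 3 and 8.96% in the chronic set. The log2 differences were 0.73 ± 0.07 at day 3 and 1.17 ± 0.11 in the chronic set (SE; limma, Benjamini-Hochberg adjusted p = 0.00409 and 0.00365). Aimp2 shares 487 of its 1654 exon bases with Eif2ak1 on the opposite strand; Eif2ak1 had log2 differences of -0.17 and -0.37, neither called.

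Of 17 tested genes from the rest of the integrated stress response, 0 rose and 3 fell in the chronic set, namely Nfe2l2, Vldlr and Gpt2; 3.27% of all genes were called as lower. By limma's unadjusted p under 0.05, 2 of the 17 were higher and 5 lower, beside 8.99% and 19.3% of all genes. Nfe2l2, the antioxidant factor NRF2, differed by -0.50 ± 0.10 on the log2 scale (18.7 ± 1.52 FPKM in 3 controls and 12.9 ± 0.73 FPKM in 4 follistatin libraries, SD; limma, adjusted p = 0.0328). Vldlr, a lipoprotein receptor, differed by -0.81 ± 0.17 (adjusted p = 0.0371) and Gpt2, the mitochondrial alanine aminotransferase, by -0.69 ± 0.15 (adjusted p = 0.0465). None of the 17 was called at day 3, where the unadjusted p from limma was under 0.05 for 1 higher and 1 lower. Among other amino acid and one-carbon enzymes Gpt2, which stands on both lists, was the 1 called of 24 in the chronic set (4 higher and 4 lower by unadjusted p), and 0 of 25 were called at day 3 (1 higher and 1 lower by unadjusted p). Of 17 synthetases listed as mitochondrial, none of them among the 20 above, limma called 0 in either set. By unadjusted p, 1 was higher and 1 lower in each set.

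Comparing days, 0 of the 36 tested genes were called at day 7, where 0.217% of all genes were; with limma's unadjusted p under 0.05 there were 5 higher and 1 lower, shares of all genes being 4.96% and 7.73%. Between the day 14 and day 7 effects 0 of 36 were called, beside 0.308% of all genes, and 4 had an unadjusted p under 0.05 by limma. Mthfd2, Chac1 and Asns were the 3 more positive at day 14, as were 0.860% of all genes, and Glul was the 1 more negative, as were 0.978%. Between the chronic and day 3 effects 0 of 37 were called, beside 0.0884% of all genes. Limma's unadjusted p was under 0.05 for 4 more positive later, among them Aldh18a1 and Mthfd2, and for Glul as the 1 more negative; the shares of all genes were 2.99% and 11.9%. Of the 41 genes, the authors' deposited table marks 3 as significant at day 3 among 35 tested, beside 6.25% of all genes. These were Chac1, Glul and Cth. It marks 8 of 39 in the chronic set, beside 17.8%, with Chac1 lower and Trib3, Psat1, Psph, Shmt1, Mthfd2, Aldh18a1 and Pycr1 higher.

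**Figure D5:**
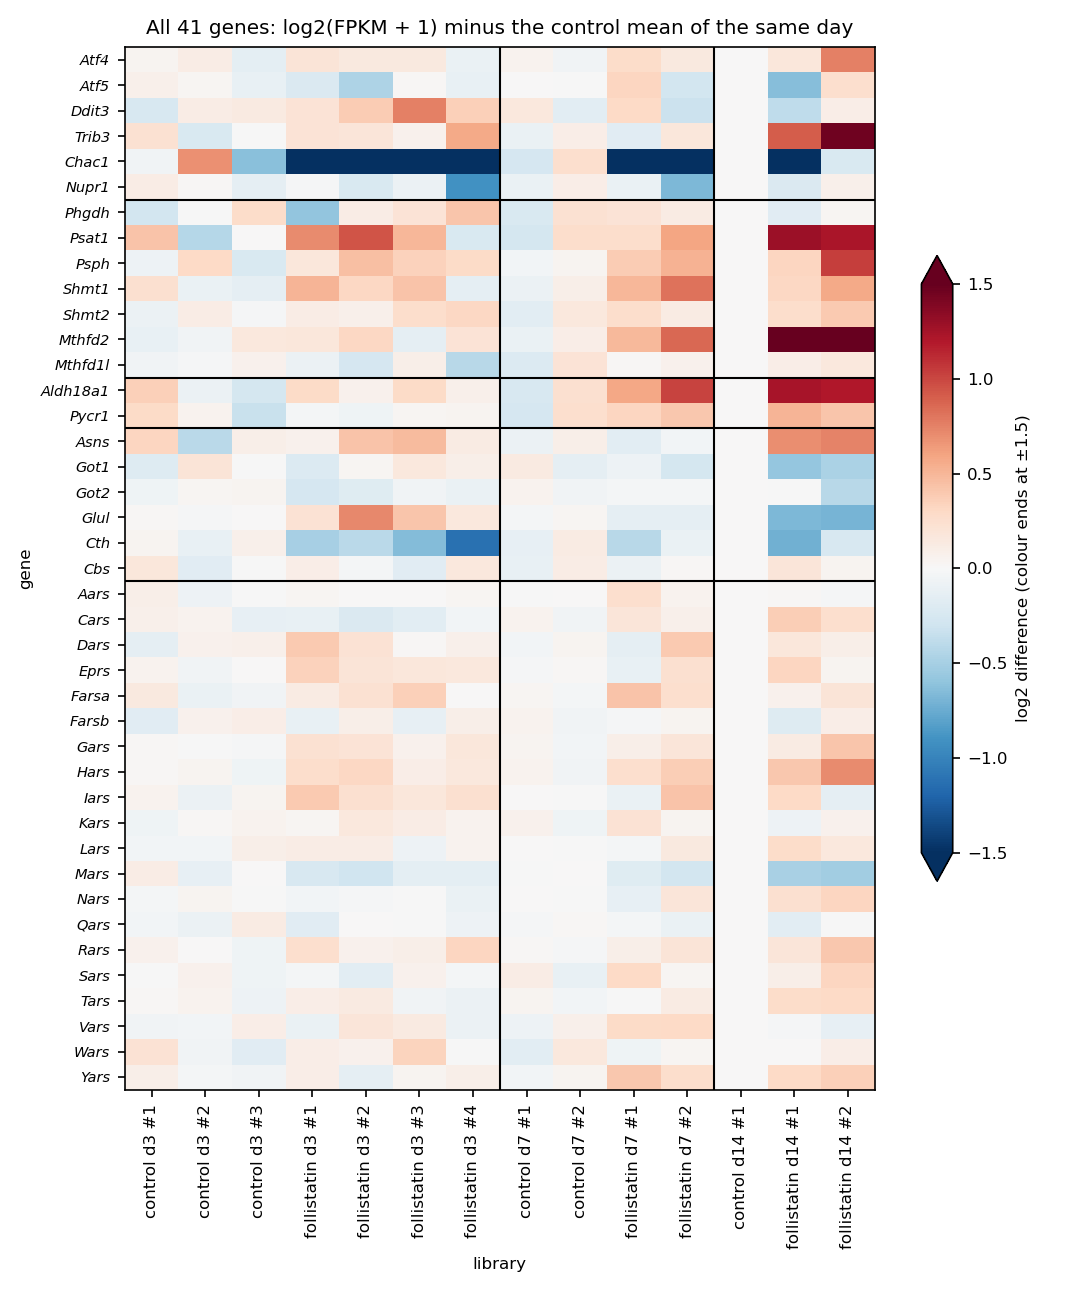
Difference of log2(FPKM + 1) from the control mean of the same day (colour, ending at ±1.5) for the 41 genes (rows, by role) in each library (columns); the lone day 14 control is 0 by construction. Chac1 is below -1.5 in 7 of the 8 follistatin libraries and at -0.22 in day 14 replicate 2, Cth is below 0 in all 8, Mthfd2, Trib3, Psat1 and Aldh18a1 are red at day 14, and the synthetases stay pale.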

How the data were processed

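The authors processed the reads with TopHat and Cuffdiff on build mm10, per the submitters' processing notes; versions, annotation, strand and counting mode are not given in the sources used here. They deposited FPKM per gene and library. The authors' deposited tables, from Cuffdiff on each set, also hold log2 fold changes, a test score, p-values and q-values.

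Of 24386 genes, 27 with symbols turned into dates were left out, as were genes marked as having too many reads (4 at day 3, 31 chronic) from the tests. Read counts were not used, so absolute depth is unknown. Low values of the day 3 libraries placed their depths at 0.683 to 1.28 times that of control day 3 replicate 1; chronic depths could not be fixed.

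Limma 3.58.1 in R 4.3.3 (lmFit, eBayes with trend; pseudocount 1; two-sided) was run on each set, on a mean per treatment and day for days 7 and 14, and over 14 libraries for the difference between sets. The fits were tested on simulated data. Members and lists were chosen with earlier results of these data known. Values per library are given for Atf4, called genes, and those with an unadjusted p under 0.05 and separate groups; others, and the 30-base promoter stretches, were added after values were seen. Positions are from GENCODE M21 (GRCm38), promoters from RefSeq (GRCm38.p6); 1 promoter is not reported here. Alternatives were the pseudocount, filters, rescaling, eBayes options, a 1.5-fold limit, small RNA genes left out, genes with too many reads kept, a replicate block, day 7 fitted alone, day as a term, all 14 libraries in 1 fit and each library left out. The fit of all 14 libraries had a mean per treatment and day, and its chronic effect was the average of the day 7 and day 14 effects.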

Additional observations from a re-analysis of the deposited data

How the results depend on the processing

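The number of the 41 genes called depended on the setting, and no call changed direction. At day 3 it was 0 with the replicate block (Chac1 adjusted p = 0.0938 from limma) and 0 to 1 with a library left out. In the chronic set it was 0 with no filter on low values (Aldh18a1 adjusted p = 0.0763) and with the replicate block (0.0521). It was 2 with median ratio rescaling or quantile normalization, 3 without small RNA genes, 9 with all 14 libraries in 1 fit (Aldh18a1, Chac1, Glul, Hars, Mars, Mthfd2, Psph, Shmt1 and Yars), and 0 to 2 with a library left out. With a mean of at least 5 FPKM it was 1, Chac1 (adjusted p = 0.0381), since that filter leaves out Aldh18a1. At day 7 it was 1 (Chac1) with a pseudocount of 0.1, a mean of at least 5 FPKM, robust eBayes, small RNA genes left out, genes with too many reads kept, the replicate block, all 14 libraries or day 7 alone, and 0 to 1 with a library left out. At day 14 it was 0 with a pseudocount of 0.1, no filter or the replicate block, 4 with all 14 libraries (Aldh18a1, Hars, Mars and Mthfd2), and 0 with any library left out. Day 14 was not run without its lone control, since no contrast is left. The differences between effects called 0 in every setting run. The labels do not say whether replicate numbers pair the libraries. Deviations of same-numbered libraries correlated at -0.056 to -0.033 at day 3, and those of differently numbered ones at -0.067 to 0.089. At day 7 the values were 0.014 and -0.014, which are opposite by construction with 2 libraries in a group. With so few libraries these correlations cannot exclude pairing. Over all genes, calls ranged from 19 to 266 at day 3 (168 as reported), 43 to 1943 in the chronic set (608), 9 to 417 at day 7 (24), 32 to 635 at day 14 (56), 0 to 77 for day 14 against day 7 (34) and 2 to 32 for chronic against day 3 (10). Chronic calls were 247 higher and 361 lower, 389 and 239 with median ratio rescaling and 414 and 326 with quantile normalization. The median of all genes for the chronic against the day 3 effect moved from -0.11 to 0.00446 with the first rescaling. The chronic median of the stress factors moved from -0.07 to 0.03 with it. Day 14 rests on 3 libraries, and unknown depth limits what can be said of genes under 1 FPKM.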
